A study of Caenorhabditis elegans with 2 samples.

Results

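The regions described here are places where FKH-6-GFP chromatin immunoprecipitation gave a summit beside a nuclear transfer RNA (tRNA) gene of Caenorhabditis elegans. A region of the list made from both replicates together, called the pooled list below, was taken when its summit lay within 500 bp of the 5' end of a gene annotated as tRNA. This gave 447 regions out of 26164, after 23 mitochondrial regions were set aside. The rule used positions alone and no signal. FKH-6, the tagged protein, belongs to the forkhead family of DNA-binding proteins and is known for its role in forming the somatic gonad.

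The data were peak lists from ChIP-seq of 2 biological replicates, which form 1 group: whole late embryos of hermaphrodites, synchronized by bleaching eggs and taken 5.5 hours later. The strain was OP78, with genotype unc-119(ed3) III and the integrated transgene wgIs78, whose FKH-6 carries GFP and FLAG at its C-terminus, and the antibody was against GFP according to the deposited description, although another label names fkh-6 as the antibody. Both replicates carry the mutation and the transgene, so there is no untagged or wild-type group, and the control libraries were not analysed here. The signal comes from 1 line and from all cells of the embryo together, so binding in more cells and more binding per cell cannot be told apart, and the lists hold no expression values with which to check stage or tissue. The signal of a region is the authors' own value, used here to rank regions within a list; its scale is not stated in the labels or files. Positions are in ce11.

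tRNA genes are transcribed by RNA polymerase III. Their promoter lies inside the gene: the A box near the 5' end and the B box in the second part are bound by TFIIIC, which places TFIIIB just upstream, and a run of T bases after the gene ends transcription. C. elegans carries many identical copies of most tRNA genes, with a large share of them on the X chromosome. An isotype is the set of tRNAs that carry the same amino acid.

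The sequences below are shown because they set genes with strong regions beside genes with none. The first pair are the highest-signal members whose gene sequence occurs in 1 copy. The other lines are 3 pairs of identical genes, each with the copy of highest signal followed by a copy with no region in the pooled list or in either replicate. The gene is in capitals, intron included where it has one, and 40 bases before and after it are in lower case, written 5' to 3' along the gene's strand from the RefSeq genome (WBcel235, the same build as ce11). C04A11.t1 (tRNA-Leu) is at chrX:13665515-13665713 on the plus strand and F57F5.t1 (tRNA-Ile) at chrV:12002136-12002300 on the plus strand. F15G9.t1 (tRNA-Ala) is at chrX:9743549-9743700 on the plus strand, within the gene him-4, and its partner Y105C5A.t2 at chrIV:15604272-15604423 on the minus strand. R04A9.t1 (tRNA-Gln) is at chrX:410351-410502 and its partner C05E7.t1 at chrX:12937661-12937812, both on the plus strand. C06G1.t1 (tRNA-His) is at chrX:16634790-16634941 and its partner C49F5.t1 at chrX:11993481-11993632, both on the minus strand.
C04A11.t1: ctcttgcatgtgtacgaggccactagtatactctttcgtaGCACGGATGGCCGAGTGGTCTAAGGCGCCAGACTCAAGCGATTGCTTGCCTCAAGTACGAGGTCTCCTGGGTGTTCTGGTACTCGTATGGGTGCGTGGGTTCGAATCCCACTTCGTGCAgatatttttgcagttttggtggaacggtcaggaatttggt
F57F5.t1: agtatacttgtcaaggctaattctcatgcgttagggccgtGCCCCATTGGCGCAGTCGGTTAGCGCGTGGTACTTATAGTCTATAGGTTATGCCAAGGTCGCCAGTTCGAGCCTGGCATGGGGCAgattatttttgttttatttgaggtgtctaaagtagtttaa
F15G9.t1: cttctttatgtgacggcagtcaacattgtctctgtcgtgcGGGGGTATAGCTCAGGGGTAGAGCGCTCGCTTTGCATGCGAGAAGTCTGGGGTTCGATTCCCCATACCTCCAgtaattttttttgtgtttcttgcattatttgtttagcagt
Y105C5A.t2: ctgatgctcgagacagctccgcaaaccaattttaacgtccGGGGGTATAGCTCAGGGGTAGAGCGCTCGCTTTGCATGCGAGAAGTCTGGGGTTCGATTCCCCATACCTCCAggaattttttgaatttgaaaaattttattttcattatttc
R04A9.t1: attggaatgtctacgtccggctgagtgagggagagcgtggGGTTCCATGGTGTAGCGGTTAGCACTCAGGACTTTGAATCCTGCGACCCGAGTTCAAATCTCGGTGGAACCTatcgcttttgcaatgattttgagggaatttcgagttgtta
C05E7.t1: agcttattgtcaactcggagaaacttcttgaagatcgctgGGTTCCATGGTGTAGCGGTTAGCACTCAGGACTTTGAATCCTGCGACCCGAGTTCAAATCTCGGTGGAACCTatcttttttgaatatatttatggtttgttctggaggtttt
C06G1.t1: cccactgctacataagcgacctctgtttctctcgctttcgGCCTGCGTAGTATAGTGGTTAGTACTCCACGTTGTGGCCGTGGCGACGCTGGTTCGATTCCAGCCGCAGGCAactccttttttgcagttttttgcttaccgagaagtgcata
C49F5.t1: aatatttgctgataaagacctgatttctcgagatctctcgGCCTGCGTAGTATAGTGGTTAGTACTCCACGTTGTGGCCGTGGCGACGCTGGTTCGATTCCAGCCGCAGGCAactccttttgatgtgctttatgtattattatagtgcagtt

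Within each pair of identical genes the 72 bases of the gene are the same, and only the surroundings differ. Of the 40 bases before the gene, 17 matched at the same position in the alanine pair, 17 in the glutamine pair and 16 in the histidine pair. Of the 40 bases after it, 18, 19 and 19 matched. The pooled signal was 363 at F15G9.t1, 223 at R04A9.t1 and 186 at C06G1.t1, and no region was listed within 500 bp of their partners. Within 250 bp of the 5' ends of Y105C5A.t2, C05E7.t1 and C49F5.t1, 90.8%, 89.7% and 87.6% of 36-base stretches occurred at 1 place in the genome, a measure of how far short reads can be placed there. Partners were taken only where this share was at least 80%, so the high values follow from that choice. Nothing is read from them about other copies with no region.

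Regions at tRNA genes were among the stronger ones in the list. Of the 447 members, 145 were in the authors' reproducible list, the 767 regions that passed their reproducibility step, or 32.4% (95% Wilson interval 28.3 to 36.9). The background was 2.85% of all 26141 nuclear pooled regions, and 2.34% (2.16 to 2.53) of the 25694 that are not at tRNA genes. Members made up 19.4% (16.8 to 22.4) of the 746 nuclear regions of the reproducible list. With a minimum −log10 q-value of 2, 166 members passed, or 37.1%, beside 4.12% of all nuclear pooled regions and 3.55% of the others.

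The replicates gave the same picture when each was read alone. The median member exceeded 90.2% of the regions of the pooled list in signal, against 49.5% for the other nuclear regions. In replicate 1 the 375 regions chosen by the same rule had a median percentile of 89.7, against 49.3 for the others, and in replicate 2 the 444 such regions had 88.6 against 49.4. The difference between members and other regions was far larger than that between the replicates. Among the 100 highest nuclear regions, 32 were at tRNA genes in the pooled list, 34 in replicate 1 and 29 in replicate 2.

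Members spanned a wide range of signal, from 25.01 to 467 with a median of 60.9. The lowest member in the reproducible list had a signal of 89.2 and the highest member outside it 87.5, so presence in that list and high pooled signal are the same property here and not separate lines of evidence. A summit was listed within 100 bp in replicate 1 for 317 members and in replicate 2 for 361. Both replicates held 265 members, or 59.3%, beside 25.7% of the other nuclear regions, and neither held 34. Of the 145 reproducible members, 141 were listed in replicate 1 and 143 in replicate 2. Each replicate ranked 124 of the 145 among its own 767 highest regions. The match was the nearest summit, which was not always the strongest nearby. At K04C2.t3 it had a signal of 17.5 and rank 19459 in replicate 2, while a region of 62.1 lay within 500 bp of the gene. The rank counts and Spearman's rho below use these matches.

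Across the 265 members found in both replicates, Spearman's rho of the signals was 0.829. It was 0.751 over the 139 reproducible members and 0.327 over the 126 others, and 0.420 over 6599 other nuclear regions. These values describe regions of the same pair of libraries, which are not independent samples. The authors chose the reproducible list by a step run on these same data, and its members are those of highest pooled signal. Its higher rho may be partly set by that choice, and nothing is read from it.

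**Figure D1:**
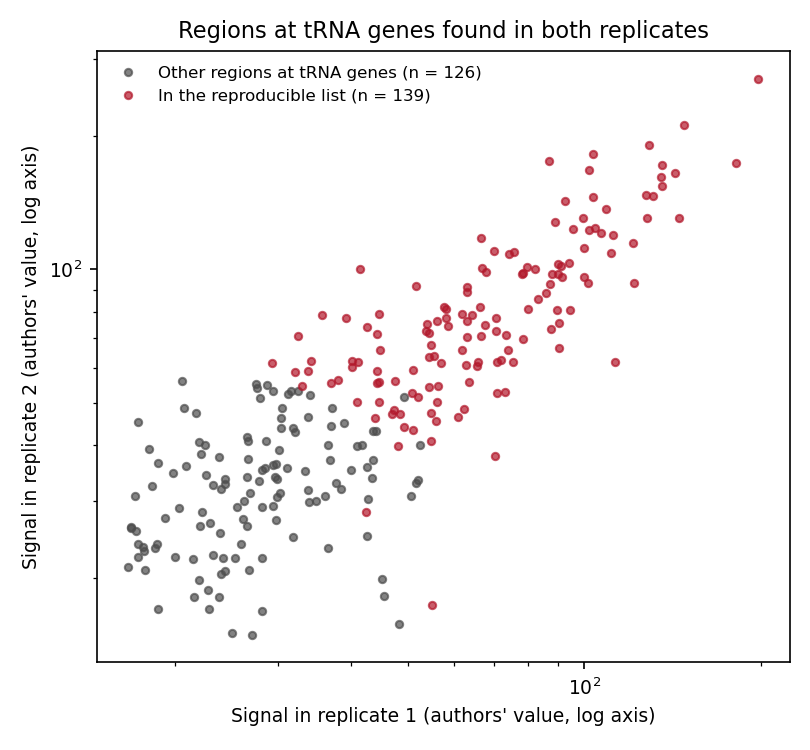
Signal of the members found in both replicates, replicate 1 on the horizontal and replicate 2 on the vertical log axis, in the authors' units; each point is 1 region. The 139 reproducible members, which the authors selected from these same data, reach the highest values, and the 126 others lie at low signal.

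The strongest member lay at C04A11.t1, a leucine tRNA gene on X that the annotation divides by an intron. Its summit was 15 bp after the 5' end, with a signal of 467 in the pooled list, 198 in replicate 1 and 270.4 in replicate 2. It ranked 22, 23 and 19 in these lists. The next lay at F15G9.t1, an alanine gene on X, with its summit 5 bp into the gene and signals of 363, 148 and 212. The lysine gene W03G11.t1 on X followed with 349, 182 and 175, its summit 4 bp upstream, and then the asparagine gene F41D9.t3 on X with 321, 129 and 192. All 4 regions ranked 52 or better in every list, but their order differed between the replicates. Another reproducible region had its summit 49 bp into the neighbouring alanine gene F15G9.t2. It overlapped the region at F15G9.t1, lay within 500 bp of the 5' ends of both genes and cannot be assigned to either. Its signal was 142 pooled and 65.3 in replicate 2, with no match in replicate 1.

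The 10 strongest members carried 8 isotypes. After those named came T21B4.t1 (tRNA-Ile, chromosome II) with a pooled signal of 310.1, B0523.t1 (tRNA-Trp, III) with 305, F28H6.t1 (tRNA-Arg, X) with 296, F57F5.t1 (tRNA-Ile, V) with 286, C42D8.t1 (tRNA-Ile, X) with 283 and C02B4.t2 (tRNA-Tyr, X) with 278. Of the 10, 7 were on X, 6 had their summit inside the gene and 4 just upstream, and 3 had a protein-coding start within 500 bp. Their ranks ran from 22 to 54 in the pooled list, from 23 to 90 in replicate 1 and from 19 to 74 in replicate 2.

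Summits gathered around the 5' end of the gene, and of the 447 fewer lay inside the gene than outside it. The median summit of the 447 members was 21 bp into the gene, with quartiles at −21.5 and 93.5 bp, where negative values are upstream. In 174 members, or 38.9% (34.5 to 43.5), it fell between the gene's ends, although a gene of the median length, 72 bp, fills 7.19% of the 1001 bp searched. The share inside the gene was 39.7% in replicate 1 and 35.4% in replicate 2, and the median positions were 19 and 23.5 bp. Upstream summits made up 33.3% and downstream ones 27.7%. The 447 members had 376 distinct nearest genes, so some genes held more than 1 member. C04A11.t1, for example, had a reproducible summit 15 bp and another 214 bp after its 5' end, the latter with a pooled signal of 117. Further regions of the same gene were not set apart in the shares here or below.

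The strong members were the most tightly placed. Among reproducible members the median was 14 bp, with quartiles at −10 and 44 bp and extremes at −97 and 227 bp. Of these, 95.9% (91.3 to 98.1) lay within 100 bp of the 5' end and 59.3% (51.2 to 67.0) inside the gene. Among the 302 other members the corresponding shares were 50.7% (45.1 to 56.3) and 29.1% (24.3 to 34.5), and the median was 32 bp. Reproducible members were 49.4% of those with a summit in the gene, 30.2% of those upstream and 11.3% of those downstream. Median pooled signals at these places were 87.4, 50.2 and 40.6. Some downstream members overlapped a stronger region of the same gene. At F41D9.t3, for example, overlapping regions with summits 14 and 216 bp after the 5' end had pooled signals of 321 and 78.5. The part of such regions in these shares was not tested.

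**Figure D2:**
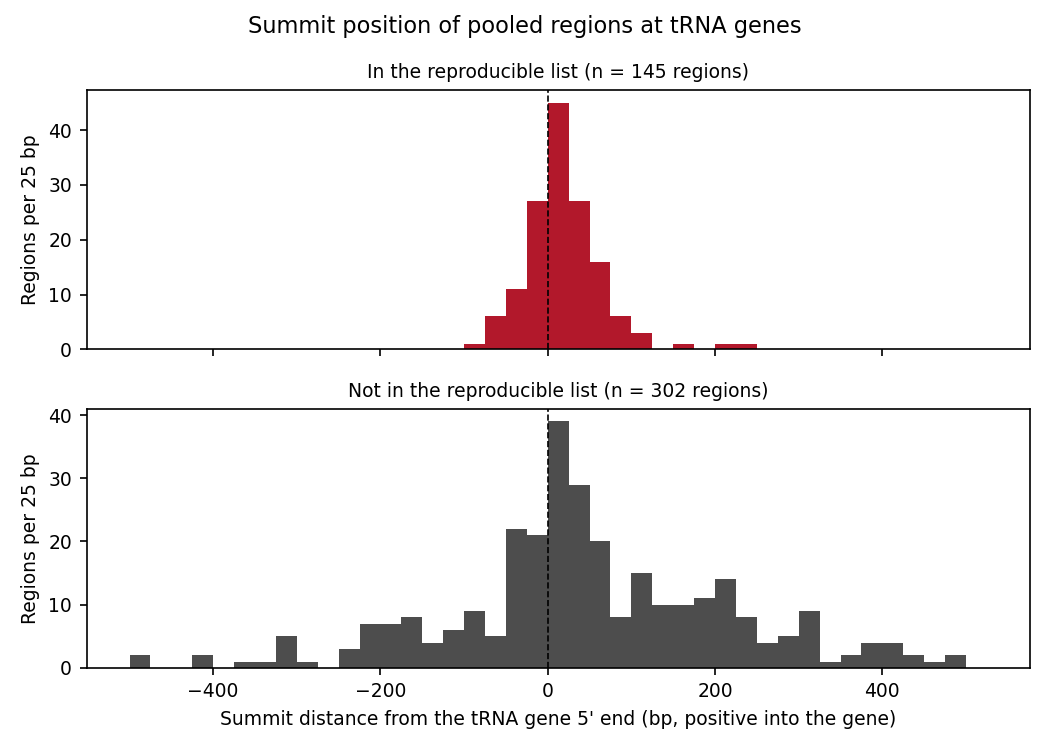
Summit distance from the 5' end of the nearest tRNA gene, in bp along the gene's strand, as the number of regions per 25 bp; the upper panel shows the 145 reproducible members and the lower the 302 others, and the dashed line marks the 5' end. Reproducible summits lie between −97 and 227 bp, while the others reach both edges of the 500 bp search.

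Replicate summits of the same member were close but not identical. They lay a median of 27 bp apart (quartiles 10 and 49) at the 139 reproducible members found in both replicates and 21 bp apart (5.25 and 51.8) at the 126 others. Pairs over 200 bp apart could not occur, because each had to lie within 100 bp of the pooled summit. A tRNA gene has a median length of 72 bp, so this spread is a sizeable part of a gene.

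Regions at protein-coding genes, members left out, were placed differently. Of the 296 reproducible regions within 500 bp of a protein-coding start and not at a tRNA gene, 23.6% (19.2 to 28.8) lay within 100 bp of that start, and their median position was −183 bp. In the whole pooled list the share was 25.1% (24.1 to 26.2) of 6165 such regions, with a median of −45 bp. Annotated starts of C. elegans protein-coding genes are often trans-splice sites, so their distances are to the annotation and not to initiation.

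The members just inside and just outside the distance limit had low to middling signals, apart from 1. Inside, the regions at ZK262.t1 (tRNA-Thr, 484 bp), C47E8.t1 (tRNA-Tyr, −492 bp) and F57G8.t2 (tRNA-Asn, 494 bp), all on V, had pooled signals of 39.6, 42.5 and 32.5. Outside, the regions nearest to C28A5.t1 (tRNA-Arg, III, −504 bp), DY3.t2 (undetermined isotype, −507 bp) and B0344.t3 (tRNA-Ile, X, 509 bp) had 109, 42.9 and 42.3. The region near C28A5.t1 was in the reproducible list and the other 5 were not.

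At member summits the B box core was the most frequent of 3 short cores, which differ in length and the number of open positions. It was searched as GTTCNANNC on both strands within 50 bp of the summit, and it was present in 158 members, or 35.3% (31.1 to 39.9), against 3.49% (3.27 to 3.72) of the other nuclear pooled regions. Among reproducible members the share was 51.0% (43.0 to 59.0), among the other members 27.8%, and among reproducible regions away from tRNA genes 6.16% (4.50 to 8.37). The core was found in 587 of the 612 tRNA genes, a median of 51 bases after the first base. A higher share at members than elsewhere therefore follows from choosing summits near these genes. Among members the share measures how near the summit lies to the gene, and nothing about binding is read from it.

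A core of the A box, TGGCNNAG, was in 11.4% (8.79 to 14.7) of members and 5.20% of the other nuclear pooled regions. Among reproducible regions the contrast was small, with 16.6% (11.4 to 23.4) of members and 13.98% (11.4 to 16.98) of the 601 regions away from tRNA genes. The core was found in 108 of the 612 tRNA genes, a minority. The forkhead core TGTTTAC was in 12 of the 447 members, or 2.68% (1.54 to 4.63), and in 1.00% (0.889 to 1.13) of the other nuclear pooled regions. Among reproducible members 5 of 145 held it, or 3.45% (1.48 to 7.82), and among reproducible regions away from tRNA genes 3 of 601, or 0.499% (0.170 to 1.46). These counts are small. These are matches of letters in a 101 bp window and do not show a bound site. Each core was counted separately, on either strand, whether or not it overlapped another.

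Seen from the genes, 421 of the 612 nuclear tRNA genes, or 68.8% (65.0 to 72.3), had a pooled summit within 500 bp of the 5' end, beside 29.6% of 19973 protein-coding genes. The share was 60.3% in replicate 1 and 67.5% in replicate 2, and 329 genes had a region in each. No list held a region for 151 genes. A reproducible region lay at 158 tRNA genes, or 25.8% (22.5 to 29.4), beside 2.09% of protein-coding genes. The 767 highest regions of replicate 1 alone gave 25.2% and those of replicate 2 gave 24.8%. A region between neighbouring genes was counted for each of them, which is why 158 genes exceed 145 regions.

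tRNA pseudogenes, which resemble tRNA genes but are annotated as not functional, served as a comparison of similar sequence. Of 209, 61 had a pooled region, or 29.2% (23.4 to 35.7), close to the share of protein-coding genes, and 3 had a reproducible one, or 1.44% (0.489 to 4.13). Each replicate alone also gave 3. Among the 150 pseudogenes with no tRNA gene within 1000 bp and with at least 80% of their surroundings unique, 32% had a pooled region and 1.33% a reproducible one. At the 58 pooled regions near pseudogenes that have no tRNA gene within 1000 bp, 29.3% (19.2 to 42.0) of summits lay within 100 bp of the 5' end, against 65.3% (60.8 to 69.6) of the 447 members. The 3 reproducible regions near such pseudogenes all lay within 100 bp, with a median position of 18 bp. Among reproducible members 95.9% did. With only 3 regions, no difference in placement is read for the reproducible list.

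**Figure D3:**
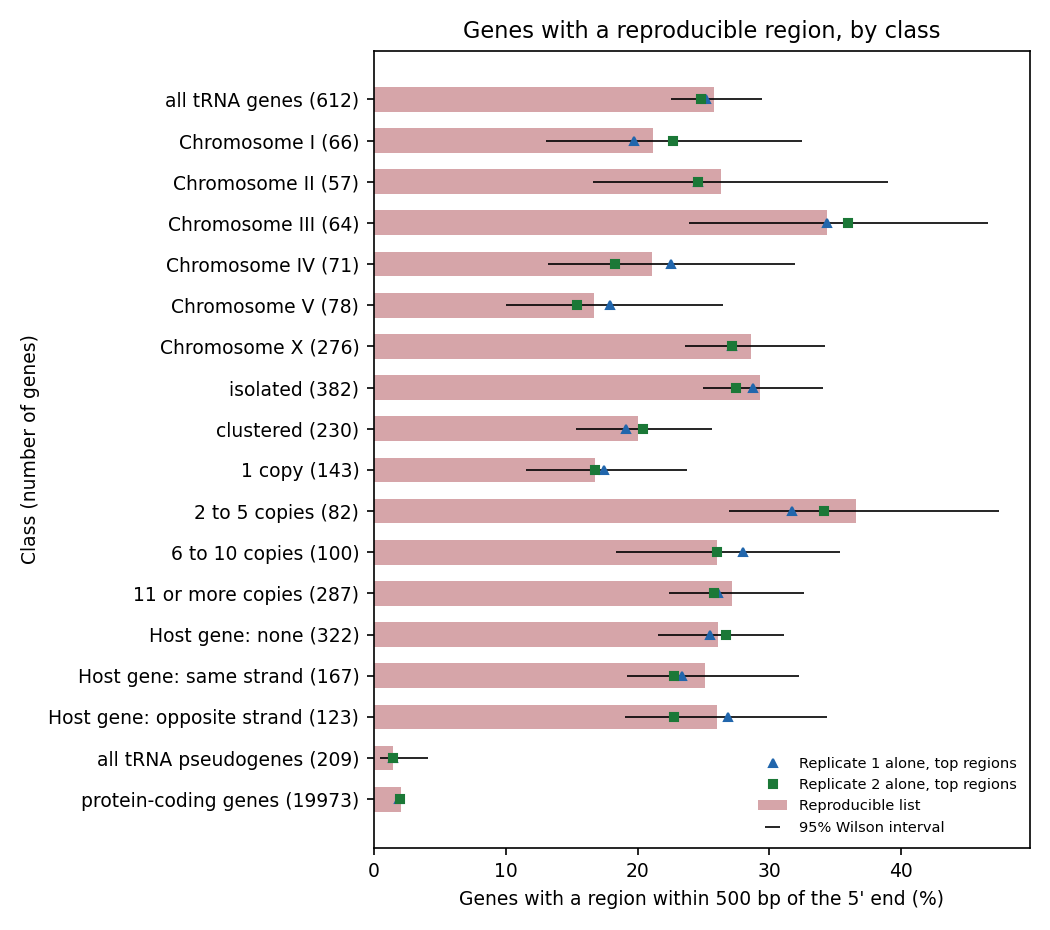
Share of genes, in percent, with a reproducible region within 500 bp of the 5' end for each class on the vertical axis (number of genes in brackets); bars are the reproducible list, black lines its 95% Wilson interval, triangles and squares the highest regions of replicate 1 and replicate 2 alone. All tRNA classes lie above the pseudogenes at 1.44% and the protein-coding genes at 2.09%.

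Shares by isotype mostly lay near the overall share. Of the 20 isotypes with at least 10 genes, 19 had a 95% interval that held the overall share of 25.8%, and at this level about 1 interval in 20 misses by construction. The exception was cysteine. With replicate 1 alone it was alanine instead, with 41.2% (26.4 to 57.8), and replicate 2 alone gave no exception. Cysteine genes had a reproducible region at 7 of 13, or 53.8% (29.1 to 76.8), and the replicates alone gave 38.5% (17.7 to 64.5) and 46.2% (23.2 to 70.9), intervals that hold the overall share. All but 1 of the cysteine genes, 12 of 13, had a pooled region, and 12 had one in each replicate. Neighbouring genes can share a region, as F12D9.t1 and F12D9.t6 did among the 7, so the genes behind these intervals are not independent. The lowest shares were those of glutamine, 4 of 27 or 14.8% (5.92 to 32.5), histidine, 3 of 20 or 15% (5.24 to 36.04), and tryptophan, 2 of 12 or 16.7% (4.70 to 44.8). Each of these 20 isotypes had at least 1 reproducible region, also with either replicate alone. The gene for selenocysteine, K11H12.t1 on IV, had a pooled region 83 bp upstream with a signal of 40.1, 20.3 in replicate 1 and 28.9 in replicate 2, outside the reproducible list. The 5 tRNA genes of undetermined isotype had no region in any list.

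**Figure D4:**
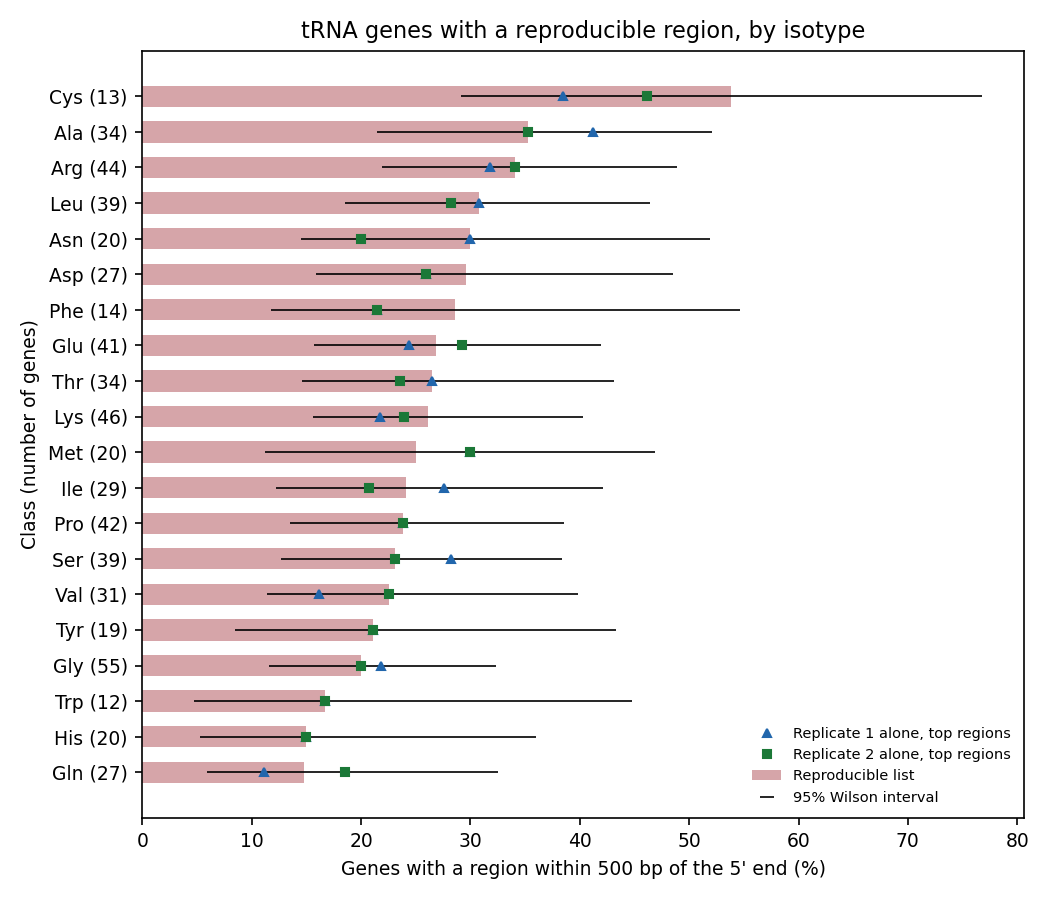
Share of tRNA genes, in percent, with a reproducible region for the 20 isotypes of 10 or more genes (number of genes in brackets); bars, lines, triangles and squares as in the plot by class. Intervals overlap throughout, from 14.8% for glutamine to 53.8% for cysteine.

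The strongest member of each isotype was among the high regions of the list, apart from selenocysteine. Besides those named above, the highest were ZC455.t1 (Ser, V) with a pooled signal of 278, M02F4.t2 (Glu, X) with 277, F38G1.t2 (Asp, X) with 276, T28B4.t1 (Phe, X) with 272 and R01H5.t1 (Thr, X) with 255.96. R04D3.t2 (Val, X) had 229, T15B12.t1 (Met, III) 227, C37A2.t1 (Cys, I) 215, F46G11.t2 (Pro, X) 191 and K09C8.t1 (Gly, X) 181. The region at M02F4.t2 also lies within 500 bp of a glycine gene, M02F4.t1, and cannot be assigned to either gene. Ranks could differ between the replicates: T28B4.t1 ranked 132 in replicate 1 and 38 in replicate 2, and C37A2.t1 ranked 65 and 169. By chromosome, the leaders on IV and V were F29C4.t1 (Arg) with 239.7 and F57F5.t1 with 286.

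X carried 276 of the 612 tRNA genes and a slightly higher share with a reproducible region. It was 28.6% (23.6 to 34.2) on X and 23.5% (19.3 to 28.3) on the autosomes, a difference of 5.11 percentage points. The replicates alone gave 27.2% and 27.2% on X and 23.5% and 22.9% on the autosomes, so the difference had the same direction in each, but the intervals overlap. The pooled list went the other way, with a region at 65.9% of genes on X and 71.1% on the autosomes. Among the chromosomes, III had the highest share, 34.4% (23.9 to 46.6), and V the lowest, 16.7% (10.01 to 26.5). At the level of regions, 39.5% (32.6 to 46.9) of the 177 members on X and 27.8% (22.8 to 33.4) of the 270 on autosomes were reproducible.

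Genes standing alone had a reproducible region more often than clustered ones. A gene was called clustered when another tRNA gene began within 1000 bp. The share was 29.3% (24.98 to 34.1) of 382 isolated genes and 20% (15.3 to 25.6) of 230 clustered genes, or −9.32 percentage points for clustered minus isolated, and the intervals overlap slightly. The replicates alone gave 28.8% and 27.5% for isolated and 19.1% and 20.4% for clustered genes. Clustered minus isolated was −9.67 in replicate 1 and −7.05 in replicate 2, an SD of 1.85 between them. The direction was the same on X, 34.5% against 22.1%, and on the autosomes, 26.2% against 17.2%. It was not seen among genes whose sequence occurs in 1 copy, where isolated genes had 16.5% (10.6 to 24.9) and clustered ones 17.5% (8.75 to 31.95). The shares with a pooled region were 69.4% and 67.8%. With a search of 1000 bp instead of 500 bp the difference shrank to −0.28 percentage points.

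In the 2 clusters of 6 genes, 2 of 12 genes had a reproducible region, and in the 2 clusters of 5 genes 0 of 10. The share over all tRNA genes was 25.8%, and these counts are too small to set against it. The 6 genes of the F22F1 cluster on X, 8154445 to 8156707, had 3 regions, of which the one at F22F1.t6 (tRNA-Met) was reproducible with a pooled signal of 113, 56.9 in replicate 1 and 61.4 in replicate 2. The 6 identical histidine genes of the F28H6 cluster on X, 14135045 to 14137010, had 1 region, at F28H6.t5, with a pooled signal of 27.9 and none matched in replicate 1. Around 4 of the 6, at most 33.9% of the 36-base stretches were unique in the genome, down to 3.22%, and the sources used here do not state how the authors placed reads that map to several places. The 5 genes of the K01A12 cluster on X, 8623603 to 8624532, shared 2 regions with signals of 64.9 and 60.2, neither of them reproducible. The H08J11 cluster of glutamine genes on X, also of 5, likewise had 2 regions and none reproducible.

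Most families of identical genes held copies with and copies without a reproducible region. The 612 genes have 200 distinct sequences, and 469 of them belong to 57 families of 2 or more identical genes. In 31 of the 32 families with at least 5 copies, some copies had a reproducible region and others did not. With 25.8% of all tRNA genes in that list, a family of this size is likely to be mixed, so the count describes the families and shows nothing particular to them. By presence of a pooled region 26 of the 32 were mixed, and in the other 6, among them 12 cysteine, 9 methionine and 9 threonine genes, every copy had one. The exception in the reproducible list was a family of 7 leucine genes, all with a pooled region and none reproducible, the highest signal being 78.1 at C27A12.t1. The largest family, 29 glycine genes, had a pooled region at 19 copies and a reproducible one at 6. The 25 lysine genes led by W03G11.t1 had 19 and 9, and the 15 glutamine genes led by R04A9.t1 had 11 and 2.

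**Figure D5:**
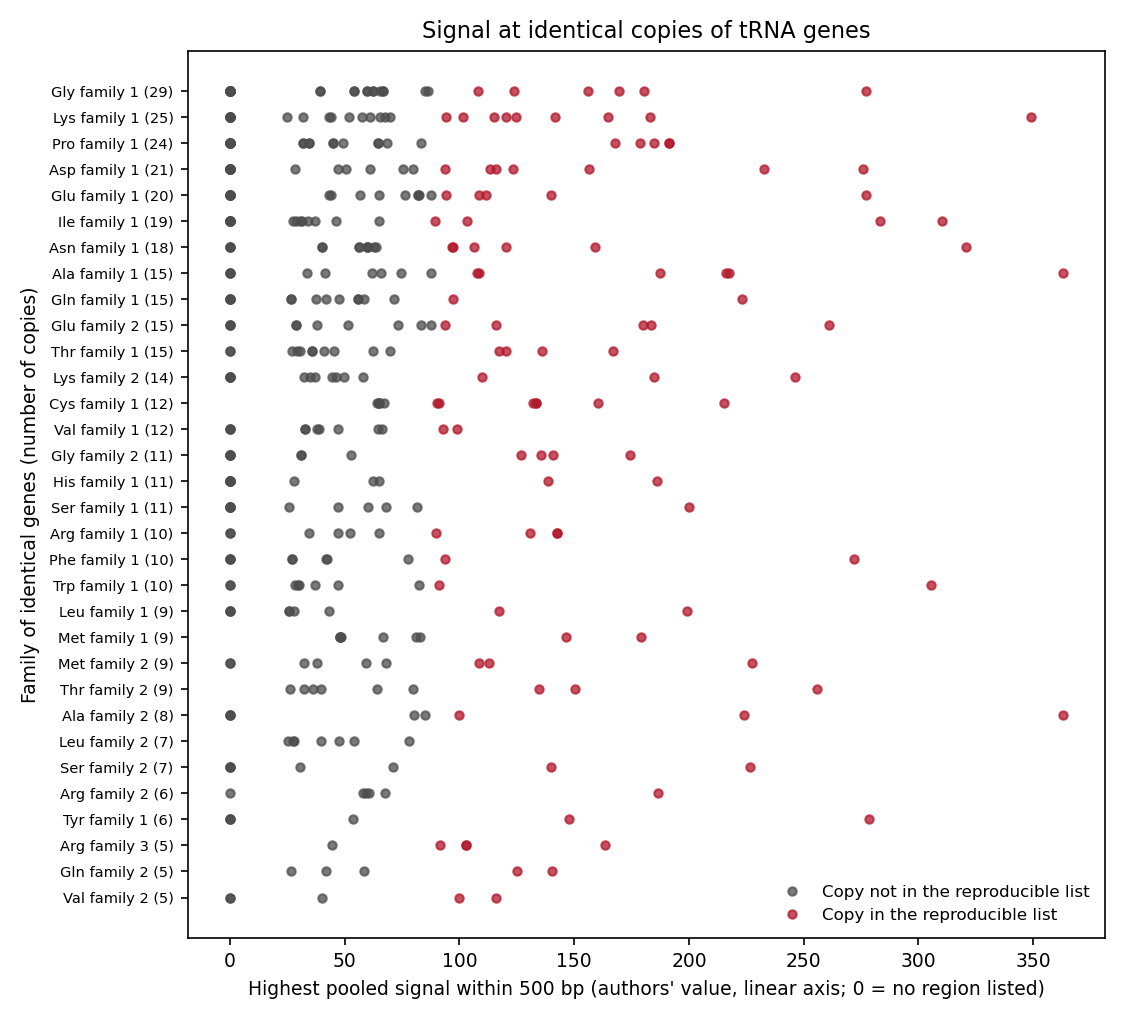
Highest pooled signal within 500 bp of each copy (horizontal linear axis, authors' units) for the 32 families of at least 5 identical tRNA genes (number of copies in brackets); each point is 1 gene, and 0 means no region was listed. In 31 families points of the reproducible list, all at 89.2 or more, stand beside copies outside it.

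Genes with a sequence of their own had the lowest share among the copy classes. A reproducible region lay at 24 of 143 genes present in 1 copy, or 16.8% (11.5 to 23.8), at 36.6% (27.0 to 47.4) of genes with 2 to 5 copies, at 26% (18.4 to 35.4) with 6 to 10 and at 27.2% (22.4 to 32.6) with 11 or more. Replicate 1 alone gave 17.5%, 31.7%, 28% and 26.1%, and replicate 2 gave 16.8%, 34.1%, 26% and 25.8%. The lower share of genes in 1 copy held on X (19.3% against 31.1%) and on the autosomes (15.1% against 26.4%). Among clustered genes it was 17.5% against 20.5%, a difference within the intervals, and among isolated genes 16.5% (10.6 to 24.9) against 34.1% (28.7 to 39.8).

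How unique the surroundings were moved with the result. Of the 524 genes where at least 80% of the 36-base stretches within 250 bp were unique, 27.9% (24.2 to 31.9) had a reproducible region, against 13.6% (7.98 to 22.3) of the other 88. Replicate 1 alone gave 27.1% and 13.6%, and replicate 2 gave 26.5% and 14.8%. The part of read placement in these shares was not tested. Within the 524 genes, a subset chosen after the data were seen, X exceeded the autosomes by 4.16 percentage points and clustered minus isolated was −10.98.

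Shares were close to each other across the surroundings of the gene. tRNA genes outside any protein-coding gene had a reproducible region in 26.1% of cases, those within one on the same strand in 25.1% and on the opposite strand in 26.0%. A protein-coding start lay within 500 bp of the summit in 17.9% (12.5 to 24.98) of reproducible members and 15.9% (12.2 to 20.4) of the others, against 24.0% of other nuclear pooled regions. An intron is annotated in 29 tRNA genes, of isotypes Tyr (19 of 19), Leu (7 of 39) and Ile (3 of 29), and 9 of them, or 31.0% (17.3 to 49.2), had a reproducible region, against 25.6% (22.2 to 29.3) of genes with 1 exon. A run of 4 T bases within 50 bp after the gene, as a terminator would have, was present at 605 of 612 genes.

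Other genes of noncoding RNAs were set beside the tRNA genes. RNA polymerase III transcribes those of RNase P RNA and 5S ribosomal RNA. The RNase P RNA gene rpr-1, whose product trims the 5' end of tRNA precursors, had a reproducible region whose summit lay 30 bp from the gene's start. Its signals were 287 pooled, 121 in replicate 1 and 167 in replicate 2. None of the 16 annotated 5S ribosomal RNA genes had a pooled region, which allows a share of up to 19.4% by the Wilson interval. Each replicate listed a region at 1 of them. How far short reads can be placed at the 5S genes was not measured, so a missing region there is not read as absent binding. Genes of small nucleolar and small nuclear RNAs, counted as 1 class, had a reproducible region at 68 of 475, or 14.3% (11.5 to 17.8), below the 25.8% of tRNA genes. RNA polymerase II transcribes most small nuclear RNA genes, and those of U6, which RNA polymerase III transcribes, were not separated from the class here.

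Protein-coding genes listed here for the tRNA pathway had a reproducible region at 1 of 58, or 1.72% (0.305 to 9.14), beside 2.09% of all protein-coding genes. Of 19 genes for RNA polymerase III subunits and factors, 7 had a pooled region within 500 bp of the start and 0 a reproducible one. The highest signal was 79.7 at rpac-19, a subunit shared with RNA polymerase I, followed by 51.4 at tftc-5, a TFIIIC subunit. The repressor gene mafr-1 had 42.5 with a region in replicate 1 alone. Of 19 genes found from a list for tRNA processing and modification, 7 had a pooled and 0 a reproducible region. They were led by elpc-2, an Elongator subunit, with 84.1. That list was broad: it holds xpo-1, adr-1 and mtq-2, whose main role may lie elsewhere, and xpo-1 is among the 7. Of 20 cytosolic aminoacyl-tRNA synthetase genes, which load amino acids onto tRNAs, 10 had a pooled region. The lysyl-tRNA synthetase gene kars-1 alone was in the reproducible list, with 91.3 pooled, 43.9 in replicate 1 and 46.6 in replicate 2, its summit 345 bp from the start. The pooled counts can be read against 29.6% of all protein-coding genes.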

How the data were processed

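The deposited lists give, for each replicate and for both replicates pooled, regions with a signal and a −log10 q-value; the authors' reproducible list is a subset of the pooled one, per the deposited descriptions. Not given in the sources used here are the aligner, the peak caller, the threshold and the scale of the deposited signal. No read counts were listed, so depth is unknown.

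Summits of the ce11 lists were set against tRNA genes of Ensembl release 115 on WBcel235, the same build. Isotypes and tRNA pseudogenes came from RefSeq, where 612 of 612 tRNA genes had the same coordinates and 607 had an isotype. Regions matched between lists when summits lay within 100 bp, and in the replicates the nearest such summit was taken. Replicates alone were read with their 767 highest regions. Percentiles are the percent of regions in the same list with lower signal. Shares carry 95% Wilson intervals, which cover counting error only. Regions are not replicates, so no p-value is given. Position recovery was tested on planted summits. Python 3.11.15, NumPy 2.4.6, SciPy 1.17.1 and Matplotlib 3.10.9 were used. There were 0 columns of other samples.

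The members, gene lists and comparisons were chosen with earlier results of these data known. Genes were named by rule: the 10 strongest members, the strongest of each isotype and chromosome, the 3 nearest each side of the distance limit, the 3 largest clusters and at most 4 genes of each pathway list. H08J11, C27A12.t1, M02F4.t1 and the partners with no region were chosen after their values were seen. Of 21 processing genes listed, 19 were found, and of 21 synthetase genes, 20. Alternatives were other distances, a q-value threshold, each replicate alone, other matching and cluster distances, and subsets of genes or members.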

Additional observations from a re-analysis of the deposited data

How the results depend on the processing

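Of 59 recomputed values, 40 moved by more than the SD between the replicates and 19 did not, where the count of isotypes was read against 1.5 times its value. That count was 20 of 20 in every setting and could not rise, so its place among the 19 shows nothing about stability. The differences between X and autosomes and between clustered and isolated genes kept their sign. With only 2 replicates that SD can be very small, 0.231 points for the share of tRNA genes with a reproducible region, so most shifts exceed it. With a search of 100, 250 and 1000 bp in place of 500 bp, the share of members in the reproducible list was 47.6%, 36.2% and 26.0%, that of genes with a region 49.0%, 60.3% and 78.3%, that of genes with a reproducible region 23.0%, 24.7% and 29.7%, summits inside the gene 59.6%, 43.4% and 30.4%, and the median percentile 96.5, 92.4 and 81.04. X minus autosomes was then 4.23, 3.24 and 4.57 percentage points, and clustered minus isolated −13.9, −12.4 and −0.278. With pooled regions of a −log10 q-value of at least 2 in place of both the pooled and the reproducible list, genes with a region were 29.6% in both readings, summits inside the gene 59.04%, the median percentile 98.9 and X minus autosomes 3.55. Counting each cluster as 1 gave 29.4% with a reproducible region and X minus autosomes of 7.60. Within genes of unique surroundings these were 27.9% and 4.16. Clustering by 500 and 5000 bp gave −5.99 and −13.1.

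With each replicate alone, the share of members in its highest regions was 31.1% to 38.4%, genes with a region 60.3% to 67.5%, genes with one of its highest regions 24.8% to 25.2%, summits inside the gene 35.4% to 39.7%, the median percentile 88.6 to 89.7, X minus autosomes 3.66 to 4.26 and clustered minus isolated −9.67 to −7.05. Isotypes with a reproducible region stayed at 20 of 20 in every setting run. No paired analysis was possible because both samples form 1 group. The cause of these shifts was not tested. Depth is unknown, and a gene with no region may lie below what these lists can hold.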

Other observations

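Cysteine tRNA genes occur in neighbouring clusters on X with different values. Both clusters were picked with their values already in view. The 3 genes of the F12D9 cluster, at 8638620 to 8639295, shared 1 reproducible region with a pooled signal of 134, 56.1 in replicate 1 and 76.3 in replicate 2. The 5 genes of the K01A12 cluster, at 8623603 to 8624532, held 2 regions with 64.9 and 60.2, and the stronger of them had no match within 100 bp in replicate 2. Both clusters hold arginine genes beside the cysteine genes.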
